A study of Homo sapiens with 6 samples.

Results

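The HOX genes of the HOXA, HOXB, HOXC and HOXD clusters were described in 6 bulk RNA-seq libraries whose label gives PANC-1, a human cell line from a pancreatic ductal carcinoma. The 38 members were taken by gene symbol from 60623 genes in the count table, and 35 of them passed the filter on low counts that left 17451 genes to test. Per the titles, 3 libraries carried a short hairpin RNA against STN1, a subunit of the CST complex that acts at telomeres, and 3 carried a control hairpin. All were grown in DMEM with 10% FBS. The genotype label of 2 libraries of the STN1 group names STN2 and STN3 knockdown where the title has shSTN1, and the titles were used. Replicates are called biological, and nothing more is given on separate cultures, so p-values measure only the spread between these libraries. The family was chosen by its fold changes in this same comparison, seen in earlier results, and its members by symbol, so its counts and fold changes are a description, given without a test of the family.

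HOX genes encode homeodomain transcription factors that give cells their position along the head-to-tail axis of the embryo. Within a cluster they lie in order of their paralogue number, from anterior genes at the 3′ end to posterior genes at the 5′ end, and neighbours are often switched on or off together. Retinoic acid acts on the anterior end, Polycomb complexes keep silent members closed, MLL complexes keep active members open, and proteins of the TALE class bind DNA beside HOX proteins. Adult cells and tumour lines keep a HOX pattern that in part reflects the place their lineage came from.

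The labels were checked before any member was compared. STN1 itself did not separate the groups. It stood at 18.6, 15.5 and 15.1 CPM in control libraries 1, 2 and 3 and at 14.8, 14.0 and 15.6 CPM in the shSTN1 libraries, a log2 fold change of -0.15 (edgeR adjusted p = 0.253). The exact two-sided permutation test gave p = 0.3, and 3 libraries against 3 cannot go below 0.1. The groups are therefore called control and shSTN1-labelled, and each difference is between libraries as labelled. Below, rose and fell mean only higher and lower in the shSTN1-labelled group. CDKN2A, a locus that PANC-1 is described as lacking, had 11753 reads over the control libraries and 0 over the shSTN1-labelled ones, at least 3812-fold lower with a floor of 3 reads over the group. This goes against the cell line label of the control libraries, and a difference of cell line cannot be told apart from one of hairpin in any value given here. The summed level of 10 pancreatic ductal and carcinoma markers ran from 1306 to 1364 CPM in the controls and from 5750 to 5921 CPM in the shSTN1-labelled group. Of its 8 tested members 7 were higher there, and CA2, a carbonic anhydrase gene, was lower at 2.11 against 340.3 CPM. Over all genes tested 35.6% were called higher and 38.5% lower, which stands beside this count and those of the marker lists below. The sum over 8 markers of embryonic kidney or neural progenitors ran from 634 to 718 CPM in the controls and from 73.3 to 79.9 CPM in the shSTN1-labelled group, with 6 of 8 lower and 1 higher. In the shSTN1-labelled libraries SALL1 had 0 reads, IRS4 3 and NEFM 4, against 2372, 20505 and 8407 in the controls. PAX2 was the 1 higher, at 24.2 CPM in the controls and 62.4 CPM in the shSTN1-labelled group (log2 fold change 1.37). LHX1 was not called (log2 fold change 0.27). Both are named after their values were seen, and this list did not fall as a whole. Fibroblast markers summed to between 73.7 and 89.2 CPM against 169.6 to 183.2 CPM, with 3 of 4 tested members higher and DCN and COL1A2 at 0 to 6 reads in each group. Endothelial markers summed to between 1.19 and 2.49 CPM in every library with PECAM1 at 0. Leukocyte markers summed to between 4.39 and 5.49 CPM in the controls and between 0.825 and 0.965 CPM in the shSTN1-labelled group, with CD3E at 0. Their part in the HOX values was not tested, and a change within cells cannot be told apart from a difference in which cells the groups hold. Correlations of log2 levels were 0.990 to 0.992 within groups and 0.848 to 0.853 between them.

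Of the 35 tested HOX genes, 14 were called higher and 19 lower in the shSTN1-labelled group (edgeR, adjusted p under 0.05). Over all genes tested, 74.1% were called, 35.6% higher and 38.5% lower, so nothing is read from the share of members called. The members' median log2 fold change was -0.77, against -0.03 over all genes. The groups did not overlap for 34 members, against 75.6% of all genes. Lower by at least 4-fold were 13 members, where 10.0% of all genes were, and higher by at least 2-fold were 7, where 15.7% were. HOXC11 and HOXD1 were not called. HOXB1, HOXC5 and HOXD12 had too few reads to test. A member that passed the filter through its level in 1 group alone had to differ, so these counts are no support.

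The direction followed the cluster. In HOXA 8 of 10 genes were lower and 2 higher, with a median log2 fold change of -3.67. In HOXB 7 of 9 tested genes were higher and 2 lower (median 1.26), and in HOXC 5 of 8 were higher and 2 lower (median 0.52). In HOXD 7 of 8 tested genes were lower and 0 higher (median -4.81). Direction by paralogue number was not separated from cluster. All tested posterior genes of HOXA and HOXD were lower, while HOXC9, HOXC10 and HOXC13 were higher and HOXC4, the most anterior of its cluster, was lower. The counts that follow stand beside 35.6% higher and 38.5% lower over all genes tested. Anterior genes of groups 1 to 4 gave 5 higher and 4 lower of 10, central genes of groups 5 to 8 gave 6 higher and 4 lower of 10, and posterior genes of groups 9 to 13 gave 3 higher and 11 lower of 15.

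**Figure D1:**
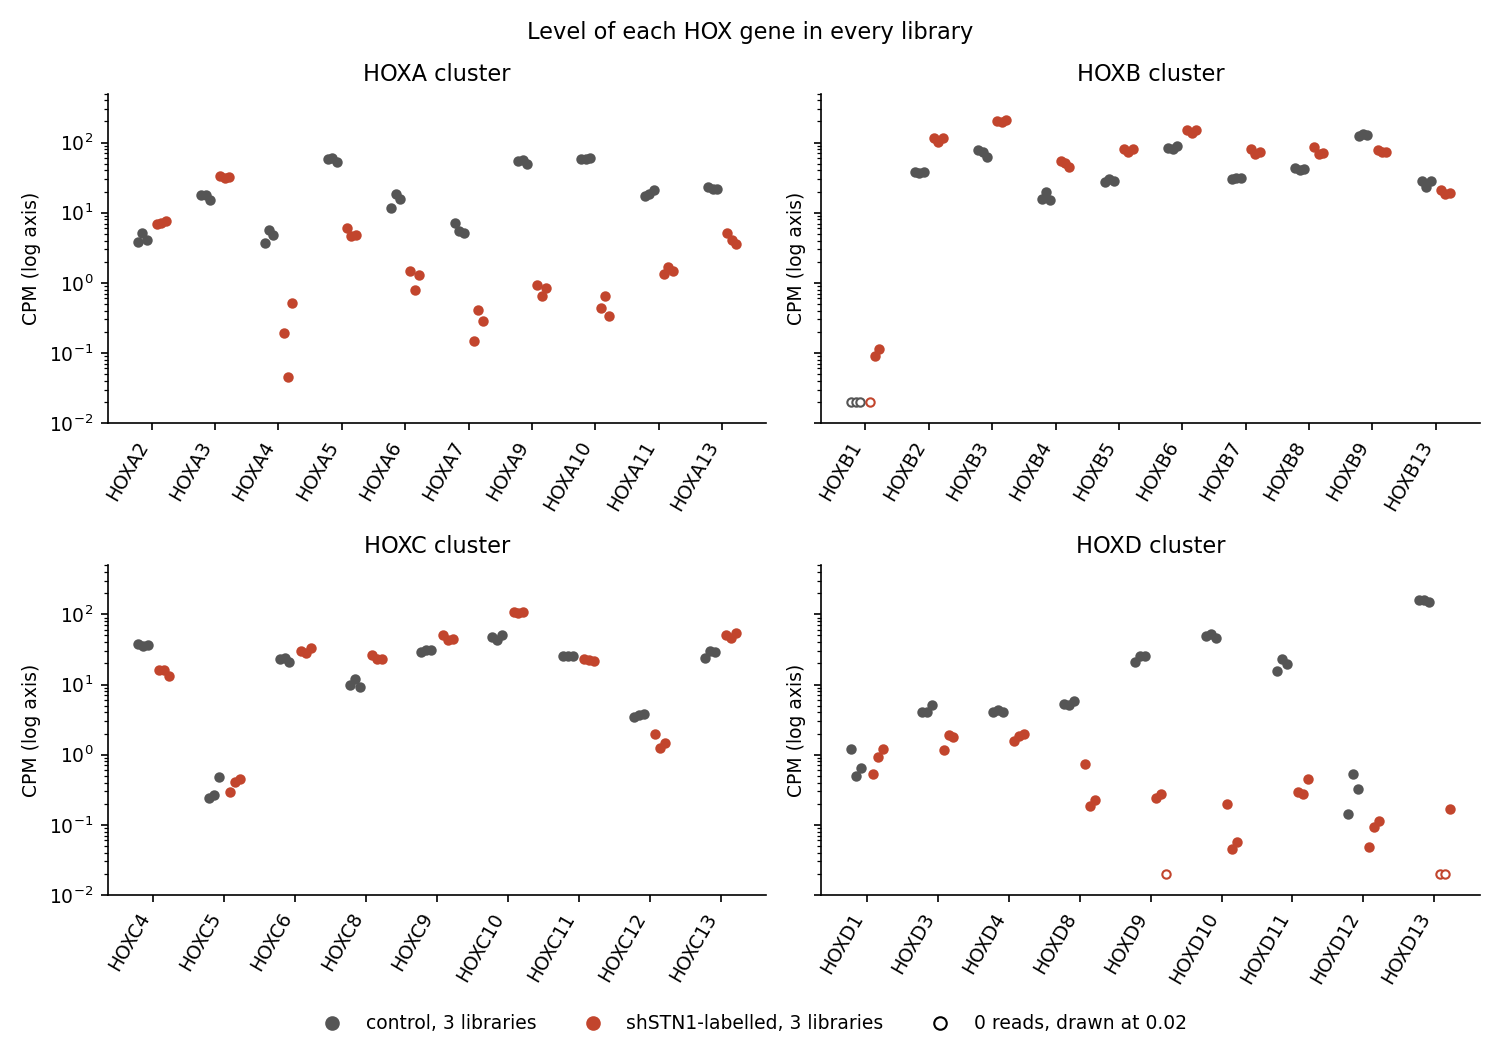
Level of each HOX gene in CPM (reads scaled to library size, log axis) in the 3 control and 3 shSTN1-labelled libraries, by cluster, with libraries at 0 reads drawn as open circles at the foot. HOXD13 stands at 151 to 161 CPM in control and has 3 reads in all in the shSTN1-labelled libraries, while HOXB2 to HOXB8 lie above their control levels.

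After TMM scaling of library sizes, the summed level of all members was close in the groups while the clusters differed. It was 1192 ± 21.0 CPM in the controls and 1189 ± 58.1 CPM in the shSTN1-labelled group (mean ± SD, n = 3), a ratio of 0.998. With unscaled library totals it ran from 1250 to 1315 CPM in the controls and from 1055 to 1149 CPM in the other group. On that scale the groups did not overlap, and the ratio was 0.869. CPM are reads scaled to the library size, and these sums mix genes of different length. HOXA summed to 258 ± 9.16 CPM in control and 53.5 ± 2.62 CPM in the other group, and HOXD to 265 ± 10.4 and 5.41 ± 0.591 CPM, a 49.0-fold lower sum. HOXB summed to 465 ± 3.98 and 833 ± 45.9 CPM and HOXC to 204 ± 3.83 and 297 ± 9.95 CPM. Sums were not tested, and the libraries of the groups did not overlap in any of the 4. In control the 4 clusters held 21.2 to 22.0% (HOXA), 38.3 to 39.6% (HOXB), 16.9 to 17.6% (HOXC) and 22.0 to 22.8% (HOXD) of the HOX level. In the shSTN1-labelled libraries HOXB alone held 69.6 to 70.5% and HOXC 24.6 to 25.4%, with 4.45 to 4.53% left to HOXA and 0.385 to 0.498% to HOXD. Between 29 and 31 members reached 5 CPM in a control library and 18 to 20 in a shSTN1-labelled one. Here and throughout, fewer cells that express a gene and less RNA of it per cell cannot be told apart in bulk RNA.

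**Figure D2:**
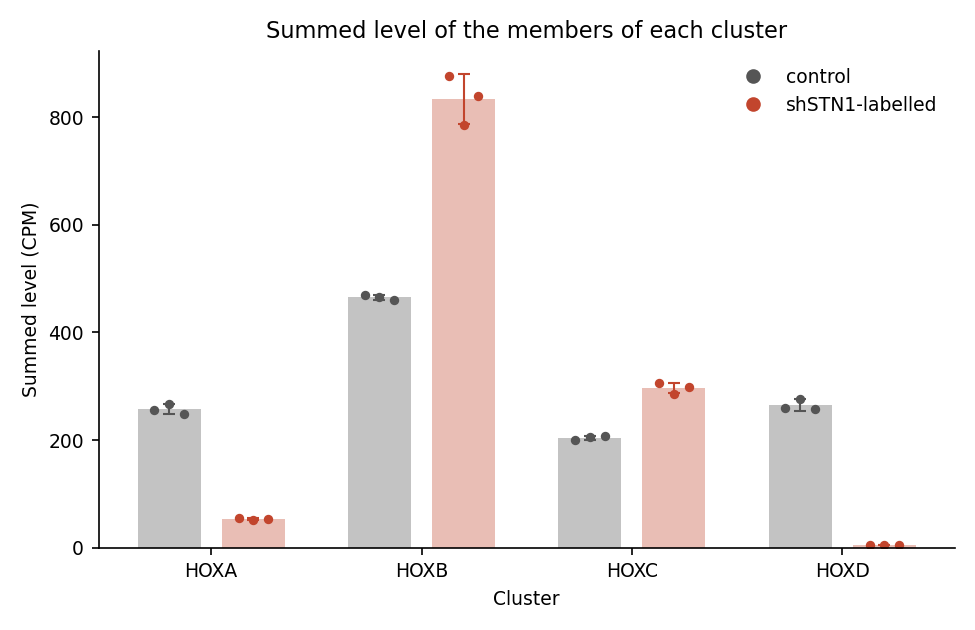
Summed CPM of the members of each cluster, with bars at the mean of 3 libraries, points for the libraries and error bars of 1 SD. HOXA and HOXD bars stand at 258 and 265 CPM in control and at 53.5 and 5.41 CPM in the shSTN1-labelled group, and HOXB bars at 465 and 833 CPM.

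Promoter sequence is shown for HOXA2, HOXA9 and HOXA10 and for HOXD13, the member with the widest gap between groups. The change of direction in HOXA lies between HOXA3 and HOXA4, whose windows are not shown. HOXA2 rose toward the 3′ end of its cluster, and HOXA9 and HOXA10 fell further along it. The bases lie upstream of a RefSeq transcript start (GRCh38.p14), are written 5′ to 3′ on the gene's own strand, and have each CG step in capitals. HOXA2 (chr7:27102812-27102933, minus strand) is cut to the 122 bases before the annotated exon. The others give 250 bases, for HOXA9 at chr7:27165538-27165787 (minus), HOXA10 at chr7:27174321-27174570 (minus) and HOXD13 at chr2:176092471-176092720 (plus).
HOXA2: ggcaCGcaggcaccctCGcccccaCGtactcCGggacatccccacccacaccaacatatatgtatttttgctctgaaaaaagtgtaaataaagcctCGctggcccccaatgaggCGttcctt
HOXA9: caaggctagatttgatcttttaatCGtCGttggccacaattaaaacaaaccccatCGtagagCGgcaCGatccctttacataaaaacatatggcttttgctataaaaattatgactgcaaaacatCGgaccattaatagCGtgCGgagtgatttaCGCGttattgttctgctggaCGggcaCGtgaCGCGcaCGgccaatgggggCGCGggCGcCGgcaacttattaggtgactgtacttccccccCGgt
HOXA10: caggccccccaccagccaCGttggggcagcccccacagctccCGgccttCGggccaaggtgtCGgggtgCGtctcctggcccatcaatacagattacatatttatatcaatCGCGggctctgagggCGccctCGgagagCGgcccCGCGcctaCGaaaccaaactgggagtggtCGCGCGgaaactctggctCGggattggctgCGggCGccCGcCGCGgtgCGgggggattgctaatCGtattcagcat
HOXD13: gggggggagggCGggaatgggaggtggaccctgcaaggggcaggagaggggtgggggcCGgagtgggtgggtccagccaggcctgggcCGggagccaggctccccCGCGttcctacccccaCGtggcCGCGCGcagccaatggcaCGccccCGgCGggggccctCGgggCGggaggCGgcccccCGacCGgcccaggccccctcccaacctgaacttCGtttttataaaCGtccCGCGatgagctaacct
The HOXA2 stretch held 6 CG steps, the HOXA9 window 20, the HOXA10 window 24 and the HOXD13 window 21. RefSeq windows were found for 20 of the 38 members (26 windows, since HOXA3 and HOXA10 have several, and HOXC4 and HOXC5 share 1). Their median was 19.5 CG steps in 250 bases, with a range from 0 to 40, against a median of 11 over 35116 windows of all genes. Searched on both strands, the HOX-PBX letters TGATNNAT were in 3 of the 26 windows and in 6.5% of all windows. TATAAA was in 5 (10.7% of all), CCAAT in 17 (32.0% of all) and GGGCGG in 13 (42.6% of all). No window was found for HOXA5, HOXB2 to HOXB9, HOXB13, HOXD9 and the HOXC genes from HOXC6 on. Such matches describe letters, not sites that a factor was shown to bind.

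The HOXA genes from HOXA2 to HOXA13 (chromosome 7, positions 27100354 to 27200106 in GRCh38, minus strand) split between HOXA2 and HOXA3 and the rest. HOXA2, which patterns the second pharyngeal arch and the ear, stood at 3.75, 5.10 and 4.01 CPM in the controls and at 6.93, 7.10 and 7.72 CPM in the shSTN1-labelled group (log2 fold change 0.75, SE 0.139). HOXA3, needed for the thymus and parathyroid, stood at 18.0, 18.0 and 15.3 CPM against 33.6, 30.9 and 32.3 CPM (0.91, SE 0.0852). All shSTN1-labelled libraries lay above all control libraries for these 2 genes. HOXA4, the next gene along, was lower. Its control libraries held 3.71 to 5.59 CPM and its shSTN1-labelled libraries 0.0458 to 0.511 CPM, with 292 and 14 reads in all. The annotated exons of HOXA4 share 31.0% of their bases with another gene on the same strand, so its reads are uncertain to that extent.

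From HOXA5 to HOXA7 the levels fell to between 4.72% and 9.20% of control. HOXA5, which acts in lung and cervical skeleton, stood at 58.2, 59.6 and 52.2 CPM in the controls and 6.06, 4.72 and 4.88 CPM in the shSTN1-labelled group, or 9.20% of control (log2 fold change -3.44, SE 0.125). HOXA6, of the thoracic genes, stood at 11.6, 18.3 and 15.8 CPM against 1.47, 0.779 and 1.31 CPM (7.78% of control). HOXA7, also thoracic, stood at 7.22, 5.55 and 5.09 CPM against 0.146, 0.412 and 0.284 CPM (4.72% of control). No library of either group reached the range of the other in these 3 genes. HOXA7 shares 62.5% and HOXA6 39.3% of its exon bases with genes on the opposite strand. The strand setting of the counting is not given in the sources used here, so part of their reads could come from HOXA-AS3.

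HOXA9 and HOXA10 had the widest differences of the cluster. HOXA9 (ENSG00000078399), a regulator of blood progenitors that is overexpressed in many myeloid leukaemias, stood at 54.9, 55.9 and 49.4 CPM in the controls and at 0.928, 0.641 and 0.851 CPM in the shSTN1-labelled group (log2 fold change -6.05, SE 0.153). HOXA10 (ENSG00000253293), which patterns the uterus and the lumbar skeleton, stood at 58.7, 59.0 and 59.8 CPM against 0.440, 0.641 and 0.341 CPM (-6.92, SE 0.219). The shSTN1-labelled levels were 1.51% and 0.801% of control, and every shSTN1-labelled library was under 1 CPM. In the most posterior genes the gap between groups was smaller. HOXA11, which acts in the forearm, kidney and uterus, stood at 17.0, 18.4 and 21.1 CPM against 1.32, 1.70 and 1.48 CPM (7.94% of control). HOXA13, of the digits and hindgut, stood at 22.9, 22.0 and 21.7 CPM against 5.13, 4.08 and 3.63 CPM (19.3% of control). Both were lower in all 3 shSTN1-labelled libraries than in any control library. HOXA11 shares 31.1% of its exon bases with opposite-strand genes.

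The HOXD cluster (chromosome 2, positions 176092891 to 176190907, plus strand) had its widest differences at the posterior end. HOXD13 (ENSG00000128714), the main digit gene, whose mutations cause synpolydactyly, was the most abundant member by CPM in control at 159.8, 161 and 151 CPM. In the shSTN1-labelled libraries it stood at 0, 0 and 0.170 CPM. That is 9709 reads against 3, a ratio of 3149 with a 95% exact interval of 1077 to 15274 that covers counting error only. HOXD10 (ENSG00000128710), which acts in lumbar motor neurons and the limb, stood at 49.7, 53.2 and 46.3 CPM against 0.195, 0.0458 and 0.0567 CPM. It had 3077 reads over the control libraries and 6 over the others (log2 fold change -8.87). Its SE, 0.331 with a prior count of 2, does not cover the counting error of so few reads. Both genes were readily detected in every control library and nearly without reads in every shSTN1-labelled one.

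The other posterior and central HOXD genes followed. HOXD9, a forelimb gene, stood at 20.7, 25.4 and 25.2 CPM in the controls and at 0.244, 0.275 and 0 CPM in the shSTN1-labelled group (log2 fold change -6.97, SE 0.628). HOXD11, the partner of HOXA11 in forearm and kidney, stood at 15.6, 23.0 and 19.5 CPM against 0.293, 0.275 and 0.454 CPM (-5.83, SE 0.240). HOXD8 stood at 5.20, 5.15 and 5.91 CPM against 0.733, 0.183 and 0.227 CPM (-3.80, SE 0.493). The groups stood apart in all 3, and the shSTN1-labelled libraries rested on 11, 20 and 23 reads in all. HOXD12 had 21 reads in control and 5 in the other group and was not tested.

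At the anterior end of HOXD the differences were smaller. HOXD4 ran from 4.04 to 4.34 CPM in the controls and from 1.56 to 1.99 CPM in the shSTN1-labelled group (log2 fold change -1.22), and HOXD3 from 4.03 to 5.09 and from 1.17 to 1.88 CPM (-1.45). Their exons share 80.5% and 62.2% of bases with genes on the same strand, so the pair cannot be fully separated. HOXD1 had 0.492 to 1.20 CPM in the controls and 0.537 to 1.19 CPM in the other group. Its log2 fold change, 0.16 (SE 0.452), had an edgeR adjusted p of 0.739, and the fold change turned to -0.11 without control library 2 and to -0.09 without shSTN1-labelled library 3. HOXD1 shares 58.1% of its exon bases with genes on the opposite strand.

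**Figure D3:**
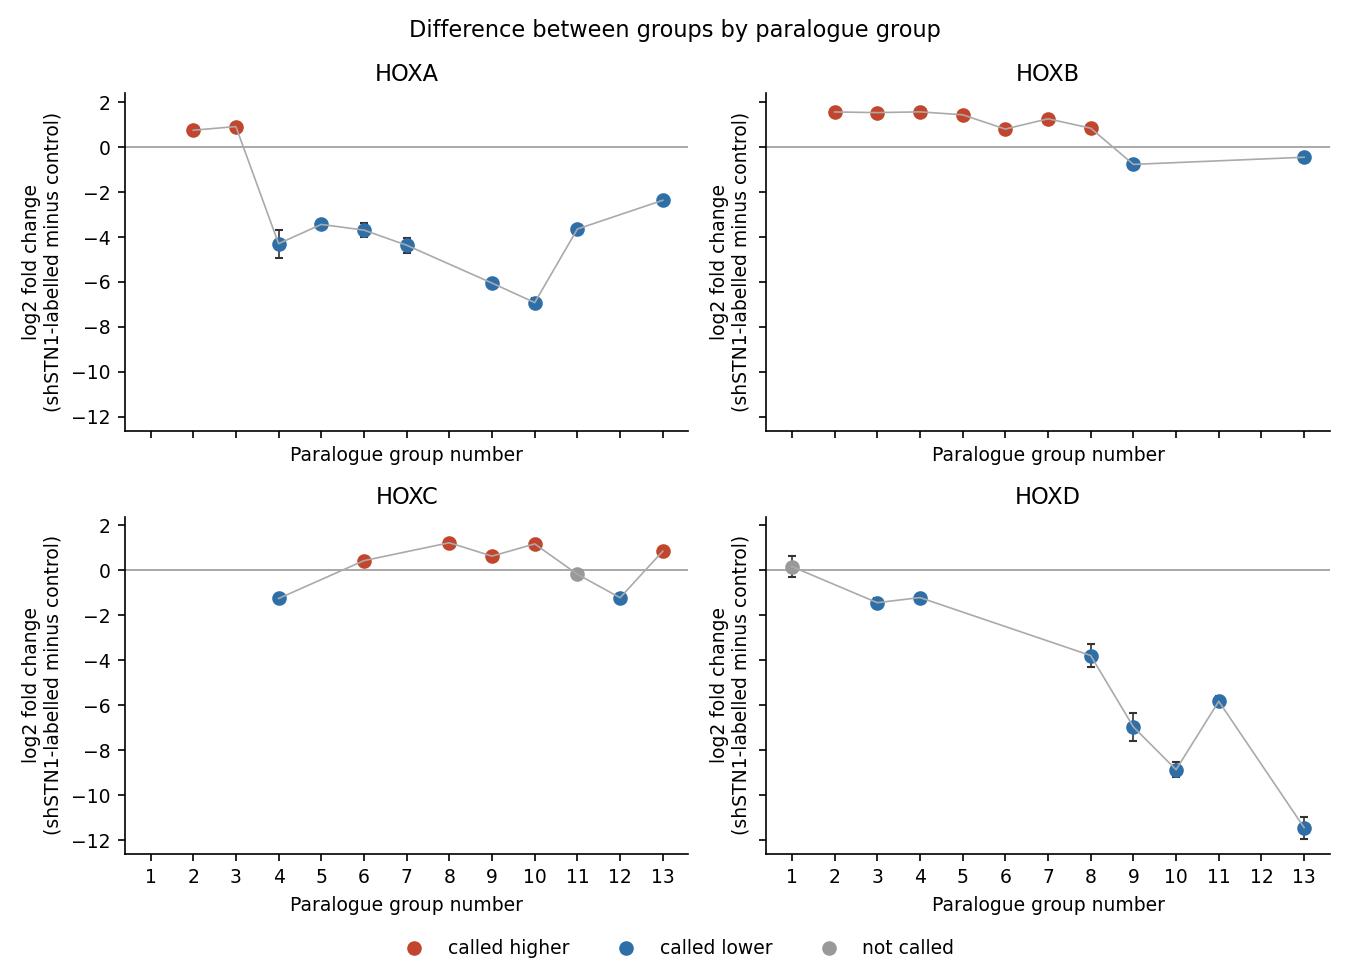
Log2 fold change (shSTN1-labelled minus control) of each tested member against its paralogue group number, by cluster, with error bars of 1 SE. The bars can be too short for members at a few reads in a group. HOXA changes sign after HOXA3 and HOXB after HOXB8, and the HOXD points run from 0.16 for HOXD1 to -8.87 for HOXD10, while the point of HOXD13 depends on the prior count, since it has 3 reads in the shSTN1-labelled libraries.

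In the HOXB cluster (chromosome 17, positions 48528526 to 48729178, minus strand) every tested gene from HOXB2 to HOXB8 rose. HOXB2, of the hindbrain, stood at 37.8, 36.9 and 38.2 CPM in the controls and at 116, 102 and 115 CPM in the shSTN1-labelled group (log2 fold change 1.56, SE 0.0616). HOXB3 (ENSG00000120093), also a hindbrain gene, stood at 77.2, 72.3 and 61.2 CPM against 206, 195 and 209 CPM (1.53, SE 0.104). HOXB4, known for expanding blood stem cells, stood at 15.5, 19.6 and 15.3 CPM against 53.7, 50.7 and 45.3 CPM (1.57, SE 0.135). These 3 anterior genes rose by close to the same fold, 2.95, 2.89 and 2.96, although their levels in control differed. All of their shSTN1-labelled libraries lay above all control libraries.

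The central HOXB genes rose to between 174% and 271% of control. HOXB5, which acts in enteric neural crest, stood at 27.2, 30.6 and 28.5 CPM in the controls and 82.0, 72.3 and 79.6 CPM in the shSTN1-labelled group (271% of control). HOXB6 stood at 83.7, 79.9 and 89.5 CPM against 151, 137 and 153 CPM (1.74-fold). HOXB7, often overexpressed in carcinomas and melanoma, stood at 30.3, 31.1 and 31.6 CPM against 81.4, 68.8 and 72.2 CPM (2.39-fold). HOXB8, used to immortalise myeloid progenitors, completes the run. It stood at 43.5, 41.2 and 42.1 CPM against 87.0, 68.7 and 71.4 CPM (1.79-fold). The groups did not overlap in any of the 4.

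The posterior HOXB genes went the other way. HOXB9 (ENSG00000170689), of the thoracic region, stood at 125, 130.4 and 126 CPM in the controls and at 78.4, 72.2 and 73.5 CPM in the shSTN1-labelled group (log2 fold change -0.77, SE 0.0400). HOXB13, a marker of prostate epithelium that lies apart from the rest of its cluster, stood at 28.1, 23.6 and 28.1 CPM against 20.9, 18.2 and 19.1 CPM (-0.45, SE 0.101). Both were lower without overlap, at 58.6% and 73.0% of control, where the posterior HOXA genes stood at 0.801% to 19.3%. HOXB1 had 0 reads in control and 4 in the shSTN1-labelled libraries, too few for a fold.

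The HOXC cluster (chromosome 12, positions 53938765 to 54056030, plus strand) had no ordered change of sign along its length. HOXC10 (ENSG00000180818), of lumbar motor neurons, stood at 47.3, 43.5 and 51.4 CPM in the controls and at 107, 105 and 108 CPM in the shSTN1-labelled group (log2 fold change 1.17, SE 0.0701). HOXC8, a gene of brachial motor neurons, stood at 9.77, 12.0 and 9.16 CPM against 26.2, 23.0 and 23.1 CPM (1.22, SE 0.131). HOXC13, which controls hair and nail keratins, stood at 23.7, 30.5 and 29.0 CPM against 50.2, 45.9 and 53.4 CPM. The 3 genes rose 2.25-fold, 2.33-fold and 1.80-fold, with no overlap between groups. HOXC9, of thoracic motor neurons, stood at 29.0, 30.9 and 30.8 CPM against 51.1, 43.8 and 44.8 CPM (1.54-fold). HOXC6 stood at 23.2, 23.5 and 21.0 CPM against 29.8, 28.0 and 33.4 CPM (1.34-fold). These 2 rose less, and their groups did not overlap either.

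2 of the remaining HOXC genes fell. HOXC4, the most anterior gene of its cluster, stood at 37.4, 35.7 and 36.1 CPM in the controls and at 15.9, 16.4 and 13.3 CPM in the shSTN1-labelled group (41.7% of control), and HOXC12 ran from 3.42 to 3.79 CPM against 1.24 to 1.95 CPM (42.7%). HOXC11 stood at 25.7, 25.4 and 25.4 CPM against 23.3, 22.5 and 21.5 CPM (log2 fold change -0.18, SE 0.0348), with an edgeR adjusted p of 0.0906. Its groups did not overlap, but the difference was not called; with upper-quartile scaling it was -0.22 with an adjusted p of 0.0456. HOXC5 had 20 and 23 reads, and 59.9% of its exon bases belong also to another gene on the same strand.

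Members moved in different directions in paralogue groups 3 to 10 and in group 13. HOXD3, HOXA6, HOXA7 and HOXD8 fell while the other members of groups 3, 6, 7 and 8 rose. In group 13, HOXD13 and HOXA13 fell, HOXB13 fell 1.37-fold and HOXC13 rose 1.80-fold, and the group's sum went from 234 ± 3.71 to 73.6 ± 4.64 CPM. In group 10, HOXA10 and HOXD10 had few reads in the shSTN1-labelled libraries while HOXC10 rose, and the sum went from 156 ± 1.03 to 107 ± 1.30 CPM. In group 9, HOXC9 rose and the other 3 members fell, for a sum of 235 ± 6.83 against 122 ± 7.40 CPM. In groups 11 and 12 no member rose. In group 2 both members rose. The sum of group 3 went from 91.7 ± 9.14 to 237 ± 8.03 CPM and that of group 2 from 41.9 ± 0.348 to 118 ± 7.93 CPM. The sums of group 4 (62.2 ± 2.7 and 67.1 ± 5.36 CPM) and group 5 (85.8 ± 4.67 and 83.6 ± 5.59 CPM) overlapped between the groups, with HOXB4 higher and HOXC4, HOXA4 and HOXD4 lower in group 4, and HOXB5 higher and HOXA5 lower in group 5. By region, groups 1 to 4 went from 197 to 424 CPM, groups 5 to 8 from 303 to 437 CPM, and groups 9 to 13 from 693 to 329 CPM.

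**Figure D4:**
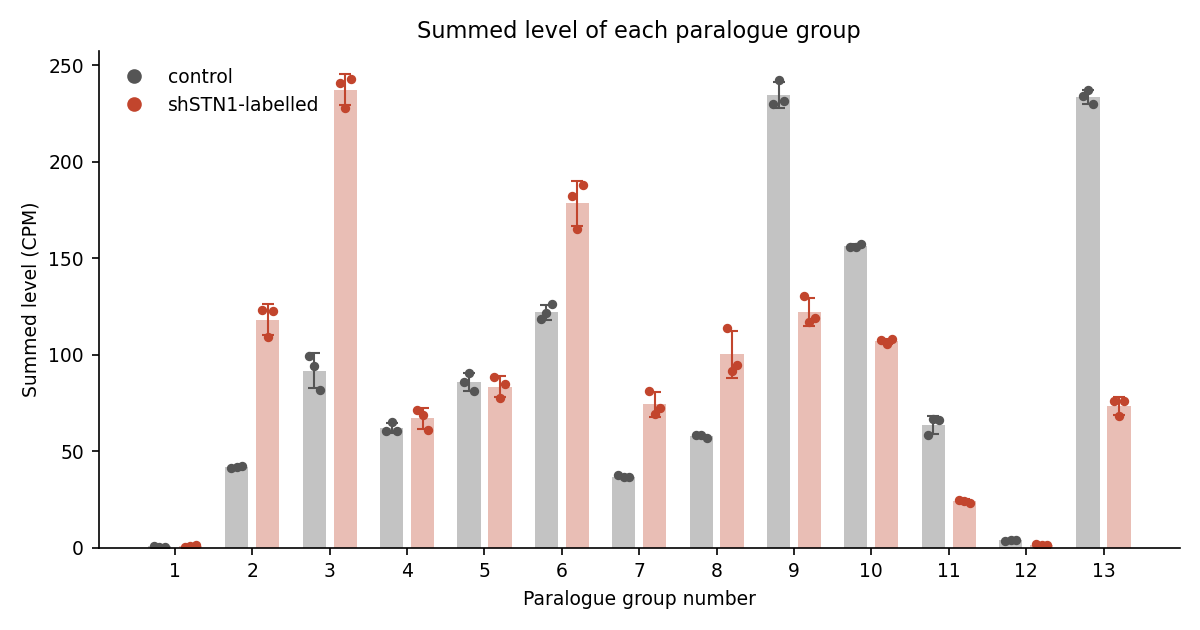
Summed CPM of each paralogue group, with bars at the mean of 3 libraries, points for the libraries and error bars of 1 SD. Groups 9, 10, 11 and 13 stand lower and groups 2, 3, 6, 7 and 8 higher in the shSTN1-labelled libraries, with groups 4 and 5 nearly level.

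To compare members with each other, CPM were divided by the length of the gene's annotated exons in kilobases (GENCODE 29, which may not be the annotation used for counting). On that scale HOXD13 led the control libraries at 70.2 ± 2.44 CPM per kb, ahead of HOXB9 at 49.4 ± 1.02. HOXA5 at 33.2 ± 2.30 and HOXB6 at 32.4 ± 1.85 CPM per kb came next and overlapped in their libraries. In the shSTN1-labelled libraries the order began with HOXB6 at 56.4 ± 3.45, HOXB7 at 48.5 ± 4.25, HOXB2 at 47.5 ± 3.35 and HOXC10 at 45.7 ± 0.614 CPM per kb, and each neighbouring pair among these 4 overlapped. Their order and overlaps depend on the gene length used. HOXD10 at 0.0369, HOXB1 at 0.0276 and HOXD13 at 0.0253 CPM per kb ended the order, each overlapping its neighbour. Posterior members held 56.8 to 57.3% of the summed density in control and 30.2 to 31.3% in the shSTN1-labelled libraries.

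Other genes inside the clusters, nearly all for noncoding RNA, went with their neighbours in part. Of 27 listed, among them the coding genes PRAC1 and PRAC2, which were not tested, 26 were in the table and 19 were tested. Of these 7 were higher and 6 lower (median log2 fold change 0.24), or 36.8% and 31.6%. Over all genes tested it was 35.6% and 38.5%, so nothing is read from the share called. HOXD-AS2, which lies opposite HOXD8 and HOXD9, stood at 18.6, 23.0 and 19.7 CPM in the controls and 0.440, 0.596 and 0.397 CPM in the shSTN1-labelled group (log2 fold change -5.39, edgeR adjusted p = 1.88e-21). HOXA11-AS stood at 10.5, 9.62 and 11.5 CPM against 0.391, 0.321 and 0.227 CPM (-5.03, edgeR adjusted p = 3.24e-18). HOXA10-AS had a log2 fold change of -4.04 (edgeR adjusted p = 2.74e-11) and HOXA-AS3 of -2.33 (2.06e-10). All 4 sit among HOX genes that fell and share exon bases with genes on the opposite strand. The 7 that rose were HOXB-AS1, HOXB-AS2, HOXB-AS3, HOXB-AS4, HOXC-AS2, HOXC-AS3 and HOXC13-AS, all in the clusters with the higher sums. 3 genes are added here after their values were seen. HAGLR, beside HOXD1, stood at 17.9 ± 0.582 and 18.9 ± 0.862 CPM. HOTAIR, between HOXC12 and HOXC11, stood at 13.5 ± 1.43 and 16.1 ± 2.44 CPM, and both were not called. HOTAIRM1, at the anterior end of HOXA, was lower at 58.5% of control although HOXA2 and HOXA3 rose.

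The clusters also hold genes of miR-196 and miR-10, microRNAs known to target HOX mRNAs. Their mature forms are shown because HOX messages carry their target letters. They come from RefSeq (GRCh38.p14) with the seed, bases 2 to 8, in capitals.
miR-196a-5p: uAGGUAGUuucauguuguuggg
miR-196b-5p: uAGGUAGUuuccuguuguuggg
miR-10a-5p: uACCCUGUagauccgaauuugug
The 2 forms of miR-196 share their seed. Its complement, ACTACCT, was in the 3′ UTR of 8 of 38 members (21.1%) and of 7.0% of 19050 genes, with UTR length not matched. Of these members HOXB6, HOXB7 and HOXC8 rose, HOXA5, HOXA7, HOXA9 and HOXB13 fell, and HOXB1 was not tested. HOXA7 held 4 such sites. The miR-10 complement, ACAGGGT, was in HOXA3 and HOXB3, which both rose (5.3% of members, 12.4% of all genes). MIR10B, the HOXD gene of the miR-10 family, named after its value was seen, had 50 reads in control and 19 in the shSTN1-labelled libraries (log2 fold change -1.35, edgeR adjusted p = 0.0187). MIR10A had 0 in both groups, but it shares 100% of its bases with genes on the same strand, so this says nothing of its level. Mature microRNAs were not measured in these libraries.

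The coding genes that flank the clusters were set beside them. Of 23 tested, 11 were higher and 4 lower (median log2 fold change 0.18). Over all genes tested, 35.6% were higher and 38.5% lower (median -0.03). Next to HOXB 7 of 8 were higher and 0 lower (median 0.78). NFE2L1, a stress-response transcription factor gene, stood at 237, 239 and 233 CPM against 599, 576 and 584 CPM (log2 fold change 1.31, edgeR adjusted p = 3.71e-19). UBE2Z, a ubiquitin-conjugating enzyme gene, stood at 180.0, 177 and 175 CPM against 454, 419 and 438 CPM (1.30, edgeR adjusted p = 8.29e-19). ATP5MC1, of the mitochondrial ATP synthase, had a log2 fold change of 0.90 (edgeR adjusted p = 4.75e-12). These 3 values lie within the range of HOXB2 to HOXB8, 0.80 to 1.57. The other flanking genes of HOXB are named after their values were seen. SKAP1 (1.25) lay within that range too, and CBX1 (0.66), CALCOCO2 (0.47), SNX11 (0.43) and TTLL6 (0.22, not called) lay below it. Next to HOXA 1 of 4 tested flanking genes was higher and 0 lower (median 0.11), next to HOXC 0 of 5 higher and 2 lower, and next to HOXD 3 of 6 higher and 2 lower. HNRNPA1, the splicing factor gene beside HOXC, stood at 1863 ± 96.3 and 894 ± 36.9 CPM (-1.06, edgeR adjusted p = 3.14e-16).

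Within 1 Mb on either side of HOXA, 3 of 10 tested genes outside the cluster were higher and 2 lower, with a median log2 fold change of 0.06. The same window gave 4 higher and 1 lower of 7 around HOXD (median 0.30), where the cluster's own median was -4.81. Around HOXB it gave 19 higher and 8 lower of 40 (median 0.45), and around HOXC 16 higher and 14 lower of 38 (median 0.04). Within 5 Mb the HOXB surroundings were near even, with 63 higher and 59 lower of 159 (median 0.06). These counts stand beside 35.6% higher and 38.5% lower over all genes tested (median -0.03). The windows were chosen after the data were seen.

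**Figure D5:**
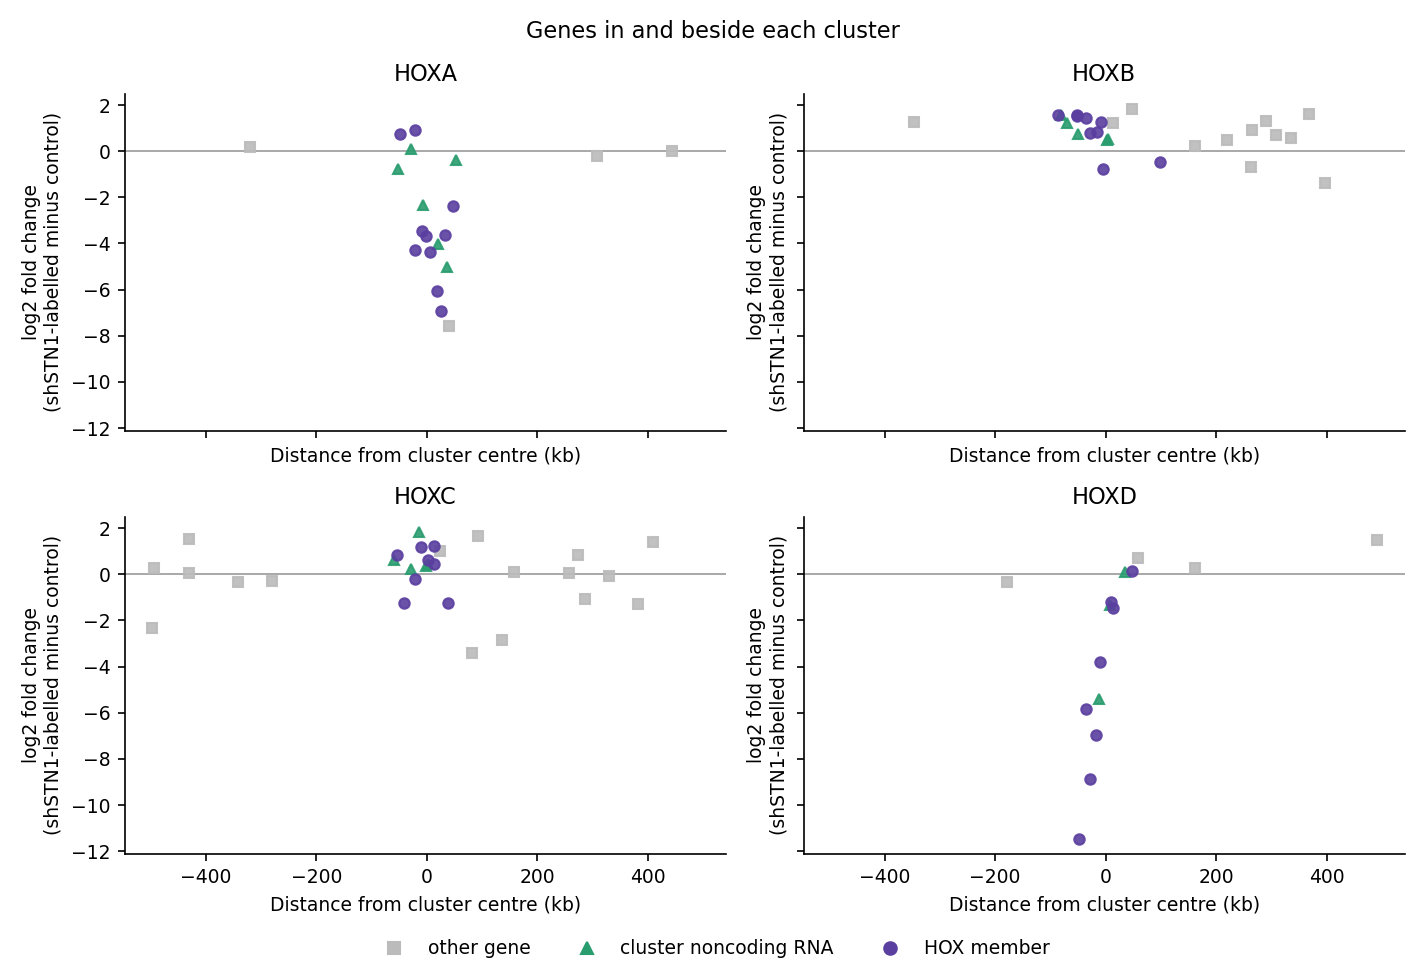
Log2 fold change of tested genes against distance from the centre of each cluster in kilobases, with HOX members as circles, cluster noncoding RNA genes as triangles and other genes as squares. The low values at HOXA and HOXD are within the clusters, including 1 unlisted gene at HOXA, and the genes to the right of HOXB lie mostly above 0.

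Partner and regulator genes were read from lists, beside 35.6% higher and 38.5% lower over all genes tested. Of 9 TALE genes tested 7 were lower and 2 higher, and the median log2 fold change was -1.68 (-0.03 over all genes). PKNOX2 had 1162 reads over the control libraries and 1 over the others, a ratio of 1131 (95% exact interval 202.5 to 44699). MEIS1, which works with HOXA9 in leukaemia, stood at 12.1, 12.7 and 10.9 CPM in the controls and 0.635, 0.412 and 0.624 CPM in the shSTN1-labelled group (log2 fold change -4.42, edgeR adjusted p = 3.00e-18). MEIS2 had a log2 fold change of -2.25 (edgeR adjusted p = 4.13e-15). The 2 that rose, named after their values were seen, were PBX3 (0.35) and PBX4 (0.37).

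Of 17 tested genes of retinoic acid synthesis, binding, response and clearance, 6 were higher and 9 lower (median log2 fold change -0.35). The synthetic enzymes went opposite ways. ALDH1A2 stood at 104, 99.2 and 99.3 CPM in the controls and 0, 0.0458 and 0.397 CPM in the shSTN1-labelled group (log2 fold change -9.50, edgeR adjusted p = 8.27e-28). ALDH1A3 stood at 11.3, 13.9 and 12.4 CPM against 54.1, 51.2 and 56.7 CPM (2.11, edgeR adjusted p = 6.38e-19). CYP26A1, which breaks retinoic acid down, fell from 20.3 ± 1.28 to 0.730 ± 0.352 CPM. The other clearance enzymes, named after their values were seen, rose: CYP26B1 had a log2 fold change of 1.16 (edgeR adjusted p = 3.24e-11) and CYP26C1 of 1.20 (8.60e-04).

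Of 27 Polycomb and MLL genes 18 were lower and 6 higher (median log2 fold change -0.48, against -0.03 over all genes, of which 38.5% were lower and 35.6% higher), and their log2 fold changes ran from -1.43 to 0.80. CBX2, a Polycomb reader, stood at 119.5 ± 4.39 and 47.6 ± 2.22 CPM (log2 fold change -1.33, edgeR adjusted p = 4.15e-17). JARID2, which recruits the methyltransferase complex, stood at 53.8 ± 1.27 and 19.9 ± 0.263 CPM (-1.43, edgeR adjusted p = 8.11e-16). RBBP7, a histone-binding subunit gene, had a log2 fold change of -0.91 (edgeR adjusted p = 3.28e-14). KMT2B, an MLL-family methyltransferase, was higher at 205 ± 1.35 against 118 ± 10.4 CPM (0.80, edgeR adjusted p = 1.97e-12).

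Relatives of the HOX genes outside the clusters were listed too. Of 16 tested ANTP-class homeobox genes 13 were lower and 1 higher, with a median log2 fold change of -2.02. Over all genes 38.5% were lower and 35.6% higher, with a median of -0.03. MNX1, a motor neuron and pancreas gene, stood at 37.7, 45.5 and 39.5 CPM against 5.37, 5.86 and 6.01 CPM (log2 fold change -2.83, edgeR adjusted p = 1.56e-20). MSX1, of tooth and limb mesenchyme, stood at 49.2, 47.0 and 46.5 CPM against 9.13, 8.29 and 8.45 CPM (-2.46, edgeR adjusted p = 2.12e-20). DLX2 (-2.30) and MSX2 (-2.36) had edgeR adjusted p of 5.40e-20 and 5.88e-19. GBX2, the 1 gene that rose, was named after its value was seen and stood at 9.83 ± 0.630 and 19.6 ± 1.89 CPM. The groups did not overlap for any of these 5 genes.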

How the data were processed

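The deposited values are raw read counts, 1 column per library, under Ensembl identifiers. They were made with featureCounts 2.0.1 after STAR 2.7.2b, cutadapt and FastQC on GRCh38, per the submitters' processing notes; annotation release and strand setting: not given in the sources used here. Of 60668 rows, 45 second copies of pseudoautosomal genes were left out, and 58516 of the rest matched GENCODE 29 by identifier. Totals ran from 17357223 to 23336942 reads per library, of which 21090 to 27168 fell on the members. Counts were fitted over all 6 libraries with edgeR 4.0.16 in R 4.3.3 (filterByExpr, TMM, robust quasi-likelihood test, Benjamini-Hochberg over all 17451 genes, threshold 0.05), after the script was tested on simulated data. SEs are those of the difference of mean log2 CPM with a prior count of 2. They are not errors of the edgeR fold changes beside them, and can be too small for members at a few reads in a group. limma 3.58.1 (voom), DESeq2 1.42.0, 2 other scalings, 2 other filters, a replicate block, each library left out and another gene length were alternatives. Figures used matplotlib 3.10.9. Members and lists were chosen with earlier results of these data known. Members at 5 CPM or more in either group mean are given by library (30), the other 8 by range or count. From each list up to 4 called genes with the smallest adjusted p are named, apart from some not reported here; 2 listed symbols were not found. The rule's text counts 1 further HOXA gene, which is not analysed here. Within groups, counts of any pair of libraries differed beyond sampling noise (chi-square divided by its degrees of freedom, 2.88 to 8.06), so no library was merged.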

Additional observations from a re-analysis of the deposited data

How the results depend on the processing

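Of 454 fold changes of single members under the alternatives, 451 kept their direction and their side of the threshold. HOXD1 reversed without control library 2 (-0.11, edgeR adjusted p = 0.841) and without shSTN1-labelled library 3 (-0.09, 0.882), within a range of -0.11 to 0.61 over the 6 libraries left out, and HOXC11 passed with upper-quartile factors (-0.22, 0.0456). Without a low-count filter the median log2 fold change of the members was -0.64, of HOXC 0.39 and of HOXD -3.83, since 38 members were then tested; with at least 1 CPM in 3 libraries it was -0.99 over 34 members and -5.83 for HOXD. Leaving out each library in turn gave medians of -0.80 to -0.74 (all members), -3.80 to -3.59 (HOXA), 1.19 to 1.32 (HOXB), 0.49 to 0.58 (HOXC) and -5.21 to -4.56 (HOXD), with 14 members higher and 19 lower each time. The ratio of the summed HOX level moved from 0.998 to 0.869 with unscaled library totals, an alternative added after the data were seen; it was 0.993 with RLE and 0.974 with upper-quartile factors. With the longest coding transcript as gene length, 33 of 76 densities moved beyond 1 SD, among them HOXB2 to 71.1 and HOXB6 to 75.0 CPM per kb in the shSTN1-labelled libraries. HOXB2 then stood above HOXB7 and HOXC10 there without overlap, so the order given above depends on the length.

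The replicate numbers did not pair libraries: correlations of same-numbered deviations were -0.0123, 0.0171 and -0.0337, and no library correlated best with its own number. With the replicate block 12742 genes were called over the table against 12929 without it, 12710 of them shared, and no member changed its call. Reads limit the low end: HOXB1, HOXC5 and HOXD12 did not pass the main low-count filter, and members at a few reads in the shSTN1-labelled libraries have no reliable fold. The medians do not hang on the fitted value of HOXD13, which ranks lowest at its interval too. Gene overlap and strand were not resolved.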
